A study of Rattus norvegicus with 20 samples.

Results

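The genes described here are 9 members of the circadian clock in the medial prefrontal cortex (mPFC) of rats, chosen by symbol from the 31038 genes of the deposited matrix. They are the positive limb (*Clock*, *Npas2* and *Arntl*), the orphan nuclear receptors *Rora* and *Rorb*, the PAR-bZIP factors *Dbp*, *Tef* and *Hlf*, and *Nfil3*. RNA came from 20 male Sprague-Dawley rats, 10 of which received LSD (lysergic acid diethylamide) and 10 saline, with 1 library for each rat. Over 90 days the rats had an i.p. injection on alternate days, which held LSD at 0.16 mg/kg in one group and saline alone in the other. According to the labels the rats weighed 180 to 200 g and were 6 to 8 weeks old at the start, lived singly under a 12 h light and 12 h dark cycle and were left without drug for 3 weeks before dissection. The paper's methods give a somewhat longer interval and an older age, for both groups alike. The clock time at which each rat was killed is not given in the sources used here, and a difference in that time between the groups cannot be told apart from an effect of LSD on these genes.

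In the mammalian clock, CLOCK or its relative NPAS2 pairs with BMAL1, the product of *Arntl*, and the pair binds E-box sequences to switch on the *Per* and *Cry* genes, which later repress the pair. A second loop acts on *Arntl* itself, where RORs activate and the REV-ERB proteins (*Nr1d1* and *Nr1d2*) repress through the same response element. The PAR-bZIP proteins DBP, TEF and HLF activate genes with a D-box, at which NFIL3 represses, and *Dbp* is a well-known E-box target whose mRNA peaks roughly opposite to that of *Arntl*. *Npas2* is most abundant in the forebrain, and *Rora* and *Rorb* are also known outside the clock, *Rorb* as a marker of cortical layer IV neurons.

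Since RORs act on *Arntl* and the BMAL1 pair acts at E-boxes, the 250 bases before the annotated starts were searched on both strands for an E-box (CACGTG), a D-box (TTATGTAA or TTACGTAA) and a ROR core (TAGGTCA or TGGGTCA). RefSeq windows on the GRCr8 build, which is not the rn6 build of the counts, were at hand for 8 of the 9 genes, with 9 windows in all, and *Hlf* had none. A ROR core stood in the window of *Arntl*, at position -16 from the start, and an E-box in that of *Tef*, at position -198 from a start that lies inside the annotated gene. Over 33469 such rat windows, 5.62% held a ROR core, 5.59% an E-box and 0.932% a D-box, so single matches among 9 windows are a description and not evidence of binding. Both windows are shown because no other window held a match, that of *Dbp* included. The matching letters are in capitals, and each sequence is read 5′ to 3′ on the plus strand. The *Arntl* window is chr1:176766078-176766327 and the *Tef* window is chr7:115206577-115206826.
Arntl: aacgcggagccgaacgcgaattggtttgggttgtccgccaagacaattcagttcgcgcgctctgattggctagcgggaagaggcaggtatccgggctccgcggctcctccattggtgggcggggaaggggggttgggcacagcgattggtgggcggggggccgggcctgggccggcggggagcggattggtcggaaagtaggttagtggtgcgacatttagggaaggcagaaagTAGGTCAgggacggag
Tef: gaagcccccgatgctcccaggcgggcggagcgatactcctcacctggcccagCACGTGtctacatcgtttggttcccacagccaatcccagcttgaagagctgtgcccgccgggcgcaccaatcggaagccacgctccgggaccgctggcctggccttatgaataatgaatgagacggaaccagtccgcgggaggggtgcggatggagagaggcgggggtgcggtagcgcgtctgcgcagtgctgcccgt

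Reads on genes ranged from 16346629 to 25552681 in the LSD rats and from 11098076 to 24201351 in the saline rats. All 9 genes were among the 16605 kept, for which 10 or more rats had to have 5 or more reads. The least covered member was *Nfil3*, with 100 to 335 reads for each rat, and the most covered was *Tef*, with 3234 to 8504. Levels are given as reads per 1000000 reads on genes after TMM scaling (normalised RPM), a scale with no correction for transcript length, so levels are compared between rats and not between genes. Summed over 5 neuronal markers (*Slc17a7* and *Camk2a* of excitatory neurons, and *Snap25*, *Rbfox3* and *Syt1* of neurons in general), levels were 6738 to 8296 in the LSD rats and 6737 to 9129 in the saline rats, so these markers were high in every library. The bulk tissue holds several cell types, and in it more cells of a type and more RNA in each cell cannot be told apart.

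Of the 9 genes, *Rora* and *Rorb* rose in the LSD rats and no other gene passed the test in either direction (edgeR's quasi-likelihood test, Benjamini-Hochberg adjusted p under 0.05 over 16605 genes). Both calls were lost when the trend of fold change with gene span was removed, which brought *Rora* from 0.30 to 0.16 and *Rorb* from 0.24 to 0.12 on the log2 scale (edgeR, adjusted p = 0.156 and 0.116). Over all genes tested, 15.0% were called, 6.48% higher and 8.54% lower in LSD rats. The count of 2 in 9 is close to what this background gives, and by itself it does not set the list apart. The median log2 fold change of the 9 genes was 0.10, against 0.0022 over all genes. Of the 9 genes 6 were above 0, beside 50.39% of all genes. Both nuclear receptors were thus among the called genes, whereas the positive limb, the PAR-bZIP genes and *Nfil3* were not.

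*Rora* encodes an orphan nuclear receptor that activates genes through the ROR element. Its level was 24.7, 28.4 and 33.3 normalised RPM in the lowest, median and highest LSD rat, and 15.5, 24.5 and 28.5 in the saline rats. Every one of the 10 LSD rats lay above the saline median, and 5 of them lay above the highest saline rat. Of the 10 saline rats 7 lay below the lowest LSD rat, so the groups overlapped in part. The means were 28.9 ± 2.87 in LSD and 23.5 ± 3.90 in saline rats (SD, n = 10 each). *Rora* had a log2 fold change of 0.30 with an SE of 0.09, or 22.9% higher, with an edgeR adjusted p of 0.0261. Saline rats 4 and 9 were the lowest, at 15.45 and 17.98 normalised RPM, and when each of the 20 rats was left out in turn the difference stayed between 0.24 and 0.33, with an adjusted p of at most 0.0487.

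*Rorb* encodes a close relative of RORA. It stood at 50.4, 56.7 and 66.1 normalised RPM in the lowest, median and highest LSD rat, against 39.7, 48.8 and 55.4 in the saline rats. As for *Rora*, all 10 LSD rats were above the saline median, 5 were above the saline maximum and 7 saline rats were below the LSD minimum. The means were 57.2 ± 5.20 and 48.5 ± 4.799 (SD, n = 10 each), and the log2 fold change was 0.24 (SE 0.06), or 17.9% higher (edgeR, adjusted p = 0.01555). The same saline rats, 9 and 4, were lowest for *Rorb*, at 39.7 and 42.5 normalised RPM. No single rat decided the call, for which the adjusted p lay between 0.00788 and 0.03435 over the 20 fits that each left a rat out.

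**Figure D1:**
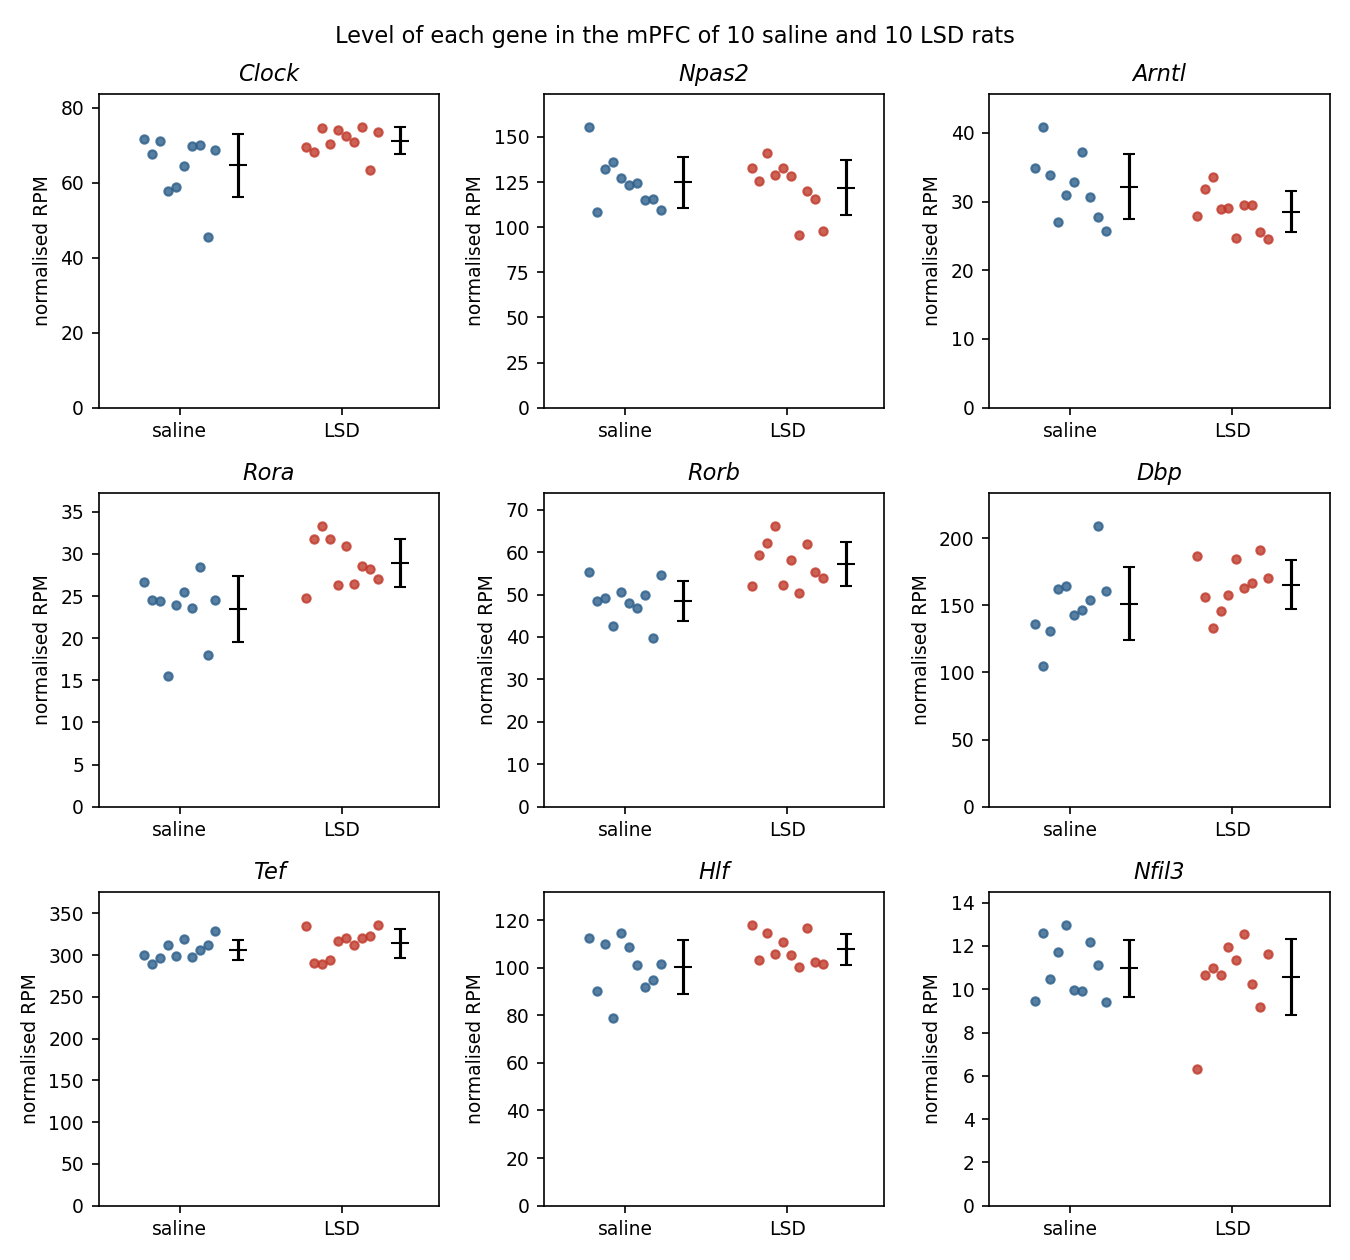
Normalised RPM (vertical axes, from 0) of each of the 9 genes in 10 saline rats (blue) and 10 LSD rats (red), with the mean and SD of each group in black. For *Rora* and for *Rorb* 5 LSD rats stand above every saline rat and 7 saline rats below every LSD rat, whereas *Arntl* leans the other way, with 4 saline rats above every LSD rat.

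Among the positive limb, *Arntl* was lower and *Clock* was higher in LSD rats by amounts that did not pass the test. *Arntl* stood at 24.6, 29.0 and 33.6 normalised RPM in the lowest, median and highest LSD rat and at 25.8, 31.9 and 40.8 in the saline rats. Of the LSD rats 2 lay above the saline median, and 4 saline rats lay above the highest LSD rat. This gave a log2 fold change of -0.17 with a 95% interval from -0.34 to -0.0087 (edgeR, adjusted p = 0.134), and the interval leaves 0 out only because it is not adjusted for the number of genes tested.

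*Clock*, which encodes the partner of BMAL1, stood at 63.5, 71.7 and 74.8 normalised RPM in the LSD rats and at 45.5, 68.2 and 71.7 in the saline rats, again as lowest, median and highest. Its levels were more tightly grouped in LSD than in saline rats, with an SD of 5.04% and 12.9% of the mean. Saline rat 9 stood apart at 45.5 normalised RPM, 8 LSD rats lay above the saline median and 5 above the highest saline rat. The log2 fold change of *Clock* was 0.14 (95% interval 0.0026 to 0.28, edgeR adjusted p = 0.148), and without saline rat 9 it was 0.09. A difference in spread between the groups was not tested.

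*Npas2*, whose product can take the place of CLOCK, showed no detectable difference. It stood at 95.7, 127.0 and 141.3 normalised RPM in the LSD rats and at 108.3, 124.1 and 155.4 in the saline rats. LSD rats 7 and 10, at 95.7 and 97.8, were below every saline rat, while the remaining LSD rats lay within the saline range. Its log2 fold change was -0.03 with a 95% interval from -0.19 to 0.12 (edgeR, adjusted p = 0.806), so differences of the size seen for *Rora* lay outside the interval.

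None of the 3 PAR-bZIP genes passed the test, although each was higher on average in LSD rats. *Dbp* varied most from rat to rat relative to its mean, at 133.3, 164.5 and 191.1 normalised RPM in the LSD rats and 105.1, 150.3 and 208.9 in the saline rats. Both the lowest and the highest rat for *Dbp* were saline rats, numbers 2 and 9, and 8 LSD rats lay above the saline median. *Dbp* had a log2 fold change of 0.13, with a 95% interval from -0.06 to 0.32 (edgeR, adjusted p = 0.344), and without saline rat 2 it was 0.081.

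*Tef* had the lowest fitted variation between rats of the 9 genes. Its levels were 289.8, 319.2 and 336.0 normalised RPM in the LSD rats and 289.2, 303.0 and 329.4 in the saline rats. This variation, beyond counting error, was 7.03% of its level, which only 2.12% of the kept genes undercut. For *Tef* the log2 fold change was 0.04, with a 95% interval from -0.05 to 0.12 (edgeR, adjusted p = 0.577).

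*Hlf* stood at 100.5, 105.6 and 117.9 normalised RPM in the LSD rats and at 78.7, 101.3 and 114.4 in the saline rats, and 9 LSD rats lay above the saline median. Its log2 fold change was 0.10 (95% interval -0.02 to 0.23, edgeR adjusted p = 0.248). The D-box repressor *Nfil3* stood at 6.33, 10.8 and 12.5 normalised RPM in the LSD rats and at 9.41, 10.8 and 12.96 in the saline rats, and 5 LSD rats lay on each side of the saline median. *Nfil3* had a log2 fold change of -0.05 (95% interval -0.26 to 0.15, edgeR adjusted p = 0.762), and this interval is the widest of those of the 4 D-box factors.

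Gene span, the distance between a gene's annotated ends on GRCr8, moved with the fold changes over the whole matrix and touches the result for both RORs. A span was found for 14929 of the kept genes (89.9%), with a median of 24514 bases, and the Spearman correlation across these genes between span and log2 fold change was 0.36. Genes are not independent replicates, so this is a description. In the decile of genes with the longest spans, 18.9% were called higher and 1.94% lower after LSD, and their median difference was 0.11 on the log2 scale. This decile holds *Rora* (733021 bases), *Rorb* (180758 bases) and *Npas2* (178812 bases). *Rora* and *Rorb* were above the median of their decile, and *Npas2* was below it. *Rora* stood at percentile 99.3 of span, so most genes of its decile were shorter. On GRCr8, lncRNA genes overlap *Clock*, *Npas2* and *Rora* (2 each) as well as *Rorb* and *Hlf* (1 each), and whether reads were assigned by strand is not given in the sources used here.

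The next decile holds *Arntl* (98520 bases) and *Clock* (84126 bases), and its median log2 fold change was 0.08. *Arntl*, at -0.17, lay below that median. *Dbp*, the shortest of the 9 genes at 4950 bases, stood at 0.13 against a median of -0.10 in its decile. In that decile 1.88% of genes were called higher and 18.4% lower. No member was tested against the genes of its decile. *Hlf* (57660 bases), *Tef* (24751 bases) and *Nfil3* (15230 bases) lay in deciles with medians of 0.06, 0.01 and -0.05.

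**Figure D2:**
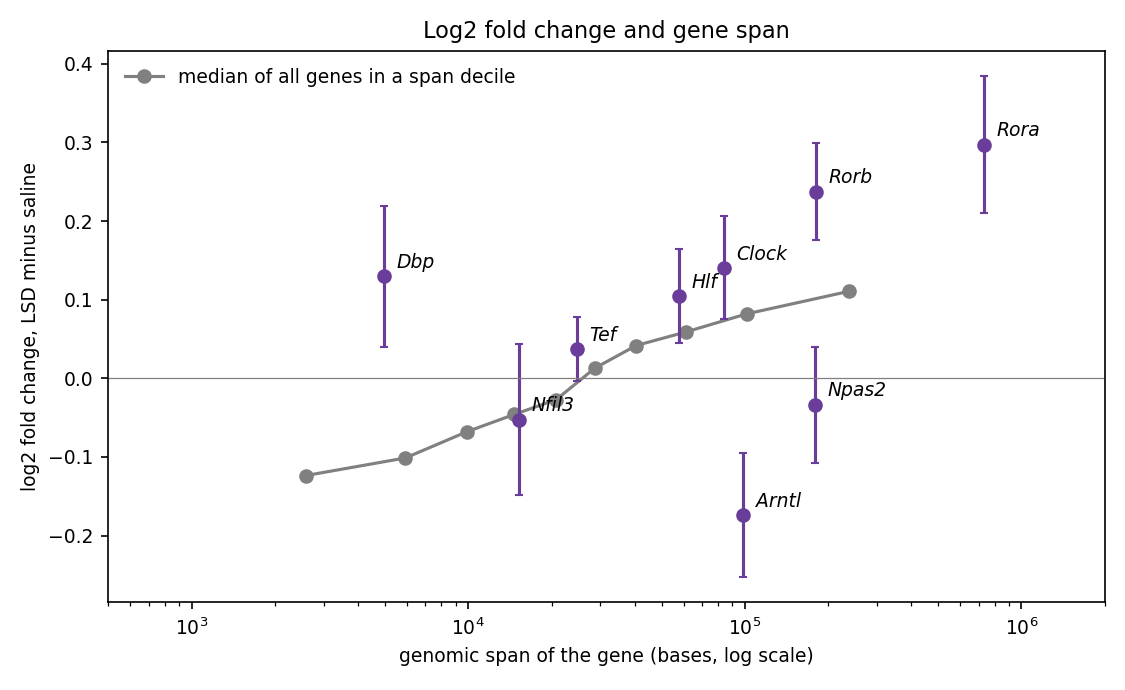
Log2 fold change, LSD minus saline (vertical axis), against the genomic span of the gene in bases (horizontal axis, log scale) for the 9 genes (purple, bars are SE) and, in grey, the median over all genes in each span decile, drawn at the decile's median span. *Rorb* lies above the grey line, which ends at 0.11 and a span of 237975 bases, and *Arntl* and *Npas2* lie below it. *Rora* lies beyond the end of the line, above its last value.

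When each rat's own trend over span was entered as an offset, the correlation with span fell to -0.02 and the calls among the 9 genes changed. The fold change of *Rora* fell to 0.16 (SE 0.07, edgeR adjusted p = 0.156) and that of *Rorb* to 0.12 (SE 0.05, adjusted p = 0.116), so neither was called. *Arntl* was then lower in LSD rats, by 0.27 on the log2 scale (log2 fold change -0.27, SE 0.07, edgeR adjusted p = 0.0250), against a background of 9.97% of genes called, with 3.19% called higher and 6.79% called lower. *Dbp* reached 0.22 with an adjusted p of 0.0812, and *Npas2* -0.16 with an adjusted p of 0.160. Directions were the same with and without the offsets for all 9 genes, and what gives rise to the relation with span was not tested.

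**Figure D3:**
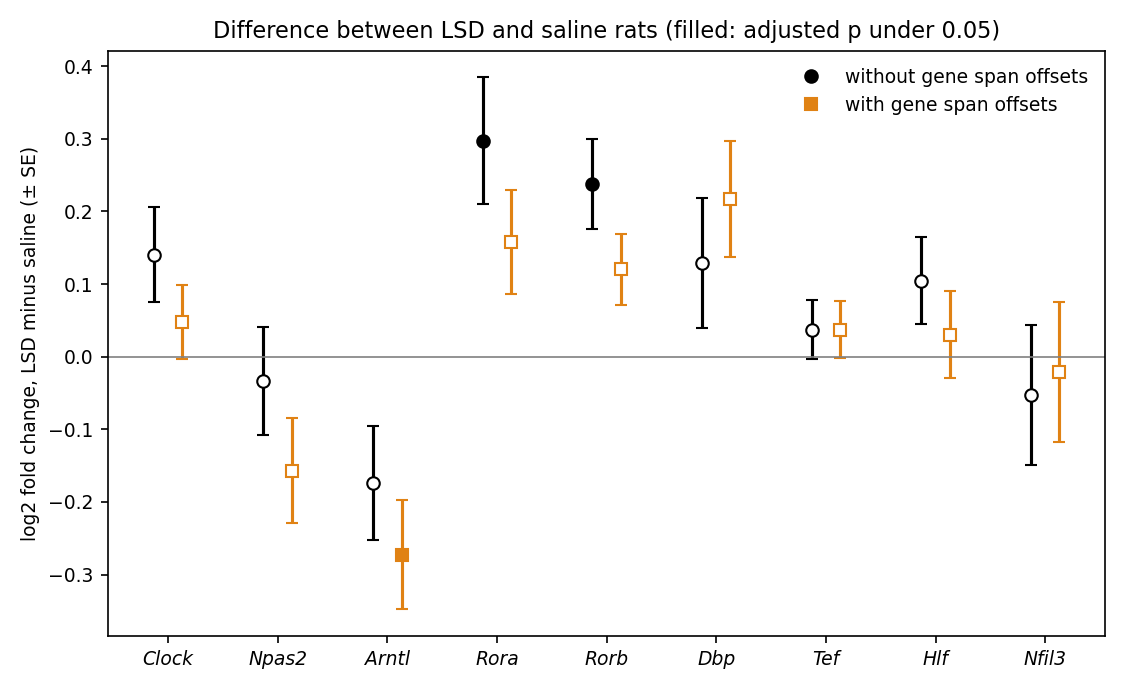
Log2 fold change, LSD minus saline, with SE bars (vertical axis) for each of the 9 genes without (black) and with (orange) offsets for gene span, filled where the edgeR adjusted p was under 0.05. *Rora* and *Rorb* are filled in black alone and *Arntl* in orange alone.

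The levels of other cell types were set beside these results. Summed striatal markers (*Drd1*, *Drd2*, *Adora2a*, *Ppp1r1b* and *Rgs9*) were 129.7 to 331.0 normalised RPM in LSD rats (median 158.3) and 148.3 to 466.3 in saline rats (median 191.4). Of the 5 markers 0 were called, and all 5 had a log2 fold change below 0, from -0.45 (*Ppp1r1b*) to -1.06 (*Adora2a*) with a median of -0.80. Most of the sum was *Ppp1r1b*, with means of 128.8 in LSD and 175.2 in saline rats. With this sum as a covariate, *Rora* was called at 0.30 (edgeR, adjusted p = 0.0466) and *Rorb* at 0.20 (adjusted p = 0.0472). Both lay close to the threshold, with adjusted p of 0.0450 to 0.0494 when each marker was left out of the sum, and *Rorb* did not pass with a wider sum of striatal markers that is not reported here. In the 16 rats with a sum of at most 300, both were called, *Rora* at 0.30 (edgeR, adjusted p = 0.0270) and *Rorb* at 0.21 (adjusted p = 0.0307), and these settings were chosen after the data were seen. Since *Rorb* marks a cortical layer, the summed upper-layer markers are given as well, at 474.1 to 580.8 in LSD and 449.7 to 546.7 in saline rats with 0 of 6 called, and the deep-layer markers at 372.4 to 497.7 and 349.4 to 550.6 with 1 of 6 (*Etv1*, higher) called. Neither list was made for layer IV, and the part of these layers in the result for *Rorb* was not tested.

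Some of the 9 genes varied together from rat to rat. This was measured after the mean of each group had been removed, so that it does not rest on the difference between LSD and saline. Pearson's r and Spearman's rho were computed over the 20 rats for all 36 pairs, on log2(normalised RPM + 1), with 100000 permutations within groups and adjustment over the 36 pairs. By Pearson's r 5 pairs passed, 3 of them negative and 2 positive.

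*Arntl* and *Dbp* went opposite ways, with r = -0.79 (permutation test, adjusted p = 0.00132) and rho = -0.79 (adjusted p = 0.00144). The rats with the most *Arntl* had the least *Dbp*: saline rat 2 was highest for *Arntl*, at 40.8 normalised RPM, and lowest for *Dbp*, at 105.1. Without the 2 rats farthest from the median of centred *Arntl* levels, r was -0.75. It was -0.79 in the LSD rats and -0.80 in the saline rats alone. In each pair below, the 2 farthest rats are those for the gene named first, so rats extreme for the other gene alone stayed in. On the log2 scale, the ratio of *Dbp* to *Arntl* reads ran from 1.99 to 2.90 in LSD rats (median 2.48) and from 1.36 to 2.91 in saline rats (median 2.22), and 9 of the 10 LSD rats lay above the saline median. The mean log2 ratio was 2.53 ± 0.30 in LSD and 2.23 ± 0.44 in saline rats (SD, n = 10 each), a difference of 0.31, for which no test was made.

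*Arntl* also went against *Tef*, with r = -0.75 (permutation test, adjusted p = 0.00132) and rho = -0.72, and r was -0.77 within LSD and -0.81 within saline rats. Without the 2 farthest rats r was -0.67. *Dbp* and *Tef* rose and fell together, with r = 0.64 (permutation test, adjusted p = 0.0113) and rho = 0.69, at 0.70 without the 2 farthest rats, but with reads drawn to equal depth r was 0.56 and the pair did not pass (permutation test, adjusted p = 0.0694). *Hlf*, the third PAR-bZIP gene, gave r of -0.10 with *Dbp* and -0.02 with *Tef* (permutation test, adjusted p = 0.840 and 0.916).

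*Rora* and *Rorb* moved together, with r = 0.79 (permutation test, adjusted p = 0.00132) and rho = 0.81, and r was 0.84 within LSD rats and 0.80 within saline rats. Without the 2 farthest rats it was 0.73, and with the offsets for gene span it was 0.65 (permutation test, adjusted p = 0.01305). *Clock* went with *Rora* (r = 0.62) and *Rorb* (r = 0.59) without passing the test (permutation test, adjusted p = 0.144 and 0.0571). For these pairs r was 0.06 and 0.14 in LSD rats alone and 0.74 and 0.79 in saline rats alone. With the offsets for gene span r was 0.30 and 0.15. A difference in r between the groups was not tested. Neither *Arntl* with *Rora* (r = 0.45) nor *Arntl* with *Rorb* (r = 0.26) passed (permutation test, adjusted p = 0.194 and 0.451). The fifth pair, *Clock* and *Dbp*, rested on few rats: r was -0.67 (permutation test, adjusted p = 0.0372), rho was -0.56 (adjusted p = 0.0613) and r was -0.38 without the 2 farthest rats. *Arntl* against *Dbp*, *Rora* with *Rorb* and *Arntl* against *Tef* also passed with the offsets, as did *Dbp* with *Tef* (r = 0.68, permutation test, adjusted p = 0.00648). When libraries were scaled by their totals alone, *Arntl* against *Tef* weakened to -0.47 (permutation test, adjusted p = 0.169). *Dbp* with *Tef* passed there (r = 0.61, permutation test, adjusted p = 0.037). With 10 rats in a group, no pair passed within the LSD rats alone (lowest adjusted p = 0.0664, permutation test) or the saline rats alone (lowest adjusted p = 0.0820).

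**Figure D4:**
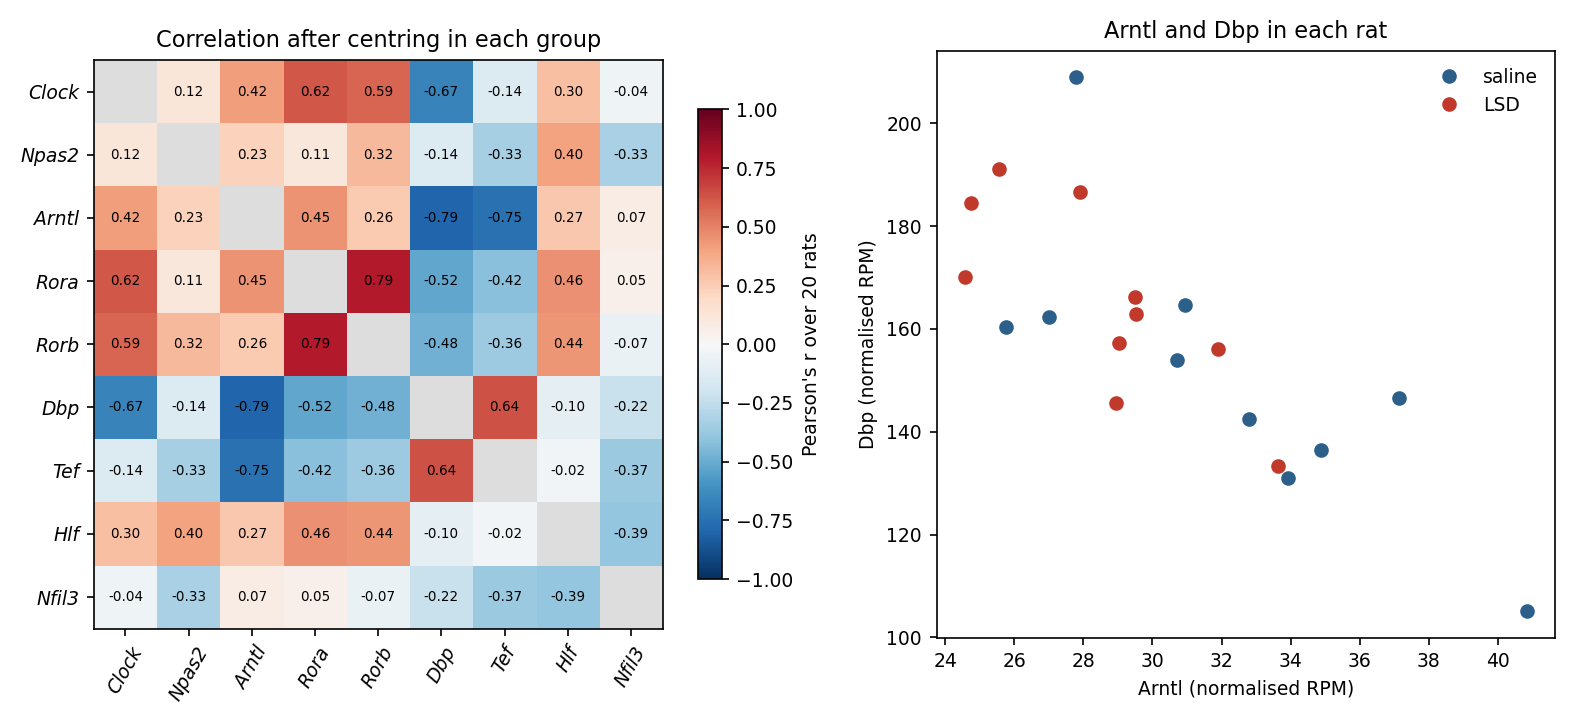
Left, Pearson's r over 20 rats for each pair of the 9 genes after centring in each group (colour scale from -1 to 1). Right, *Dbp* against *Arntl* in normalised RPM, 1 point for each rat (saline blue, LSD red), where saline rat 2 lies at 40.8 and 105.1 and the points of both groups fall from upper left to lower right.

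Among all 16605 genes tested, those whose centred levels followed each member most closely by r over the 20 rats were *Ric1* for *Clock* (0.92), *Btbd11* for *Npas2* (0.93), *Ric3* for *Arntl* (0.79), *Trhde* for *Rora* (0.83), *Rbpjl2* for *Rorb* (0.82), *Ramp2* for *Dbp* (0.84), *Il6r* for *Tef* (0.72), *Mybpc1* for *Hlf* (0.80) and *Rbm24* for *Nfil3* (0.86). *Rora* was the gene second closest to *Rorb* (0.79). These are the highest of many correlations, and no test goes with them.

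The wider clock pathway held 38 other genes, of which 35 passed the filter, and 8 of these were higher and 2 lower in LSD rats (edgeR), beside 6.48% and 8.54% of all genes. Their median log2 fold change was 0.11 and 25 of 35 were above 0, beside 50.39% of all genes. Of the 10 repressors of the loop 4 rose: *Per2* (0.34, edgeR adjusted p = 0.0235), *Per3* (0.28, adjusted p = 0.01555), *Nr1d2*, the REV-ERB beta gene (0.38, adjusted p = 0.00357), and *Bhlhe40*, an E-box repressor (0.22, adjusted p = 0.0402). *Per1*, at 0.29, had an edgeR adjusted p of 0.1496, and *Nr1d1*, the REV-ERB alpha gene, stood at -0.14 with an adjusted p of 0.401. Activators at the ROR element (*Rora* and *Rorb*) and 1 of its repressors (*Nr1d2*) were thus higher in the same rats without the offsets for span.

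Of 10 kinases and ubiquitin genes that set the life of clock proteins, *Csnk1a1* alone rose (0.28, edgeR adjusted p = 0.0237), and of 9 partners and cofactors *Sfpq* alone (0.18, adjusted p = 0.0271). Among 6 genes listed as outputs or targets, *Wee1* (0.23, edgeR adjusted p = 0.00918) and *Itpr1* (0.27, adjusted p = 0.0189) rose. *Slc1a6* fell by 0.27 (log2 fold change -0.27, edgeR adjusted p = 0.0171). The neuropeptide gene *Avp* fell by 0.998 on the log2 scale (edgeR adjusted p = 0.0388), from a mean of 0.870 to 0.437 normalised RPM. The list did not separate outputs of the clock from other targets. *Avp* and *Slc1a6* were not called with reads drawn to equal depth, where 0 genes of the list were lower. With the offsets for span 8 genes of this list were higher and 3 lower, beside 3.19% and 6.79% of all genes, but membership changed. *Per2* (0.29, edgeR adjusted p = 0.0550), *Itpr1* (0.14, adjusted p = 0.0901) and *Avp* (-0.90, adjusted p = 0.0808) were no longer called. The E-box repressors *Ciart* (0.45, edgeR adjusted p = 0.0295) and *Bhlhe41* (0.21, adjusted p = 0.0294) were then called higher, and the ubiquitin ligase genes *Btrc* (-0.24, adjusted p = 0.02275) and *Fbxw11* (-0.13, adjusted p = 0.0409) lower. *Nr1d2* stayed at 0.37 (edgeR, adjusted p = 0.00383).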

How the data were processed

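RNA from the mPFC of 20 rats, 1 hemisphere of each, was poly(A) selected and sequenced with 1 library per rat. Per the paper's methods, the authors used TrimGalore for trimming, HISAT2 for alignment to the rn6 genome and HTSeq-count for counting, and the deposited values are raw counts for each gene symbol, not normalised. Versions, annotation and strand setting are not given in the sources used here. The 5 entries without a name at the end of the matrix, 25.5% to 29.0% of all reads, were left out. The check for identical libraries found 0 pairs.

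Groups and replicate numbers came from the labels. Genes were kept as in the report (16605), scaled by TMM and tested with edgeR 4.0.16 (R 4.3.3, quasi-likelihood test, LSD against saline) with Benjamini-Hochberg adjustment over all genes kept and a threshold of 0.05. The 95% intervals use 18 degrees of freedom, and SDs are over rats. Precision is set by the spread between 10 rats and, for low genes such as *Nfil3*, by counting error. The p-values for correlations came from 100000 permutations within groups (Python 3.11.15).

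Alternatives were DESeq2 1.42.0, a rank sum test, other scalings and filters, reads drawn to equal depth, 1 surrogate variable (sva 3.50.0), the replicate number as a block, offsets for gene span and each rat left out. For the offsets, the log2 level of each gene in a rat, relative to its average over the 20 rats, was averaged and smoothed along gene span, centred in each rat and passed to edgeR. The striatal covariate and the limit on striatal markers were added after seeing the data. Of the lists, 1 striatal marker and 1 listed clock gene are not reported here, and the lists and striatal settings were recomputed without them. The steps were tested on simulated data.

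The 9 genes, the clock pathway list and the marker lists were chosen with earlier results of these data known. Genes named outside the 9 are those called in the clock pathway list with or without the span offsets, *Per1* and *Nr1d1*, the genes closest to each member by r, and cell type markers. Of the marker lists for cells not described in the report, the 5 oligodendrocyte markers gave 0 calls and all had a log2 fold change below 0 (median -0.36), with sums of 1980 to 5328 normalised RPM in LSD and 1937 to 6941 in saline rats. Of 5 inhibitory neuron markers *Gad2* and *Vip* were higher and *Sst* lower, and 0 of 5 astrocyte, 0 of 2 oligodendrocyte precursor, 0 of 5 microglial, 0 of 3 endothelial and 0 of 3 choroid plexus markers were called.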

Additional observations from a re-analysis of the deposited data

Results flagged for a closer look

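Of the 18 sets of 10 rats (9 genes in 2 groups), 2 held a rat that stood apart from the remaining rats by a gap past Dixon's limit for 10 values on the log2 scale, and chance alone marks about 1 set in 20. Saline rat 9 was the lowest of its group for *Clock*, at 45.47 normalised RPM, where the next saline rat was at 57.84. The same rat was the highest of all for *Dbp*, at 208.9, and its striatal marker sum of 445.4 was among the 4 above 300. Without it the difference in *Clock* was 0.0931 on the log2 scale (edgeR, adjusted p = 0.194). LSD rat 1 was the lowest of its group for *Nfil3*, at 6.325 normalised RPM from 100 reads, and the next LSD rat was at 9.158, a gap that passes the limit on the log2 scale but not on normalised RPM. Without it the difference in *Nfil3* was 0.0083 on the log2 scale in place of -0.0525. Neither gene was called with or without these rats.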

How the results depend on the processing

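Over the 13 alternatives other than leaving out a rat, *Rora* and *Rorb* each stayed past the threshold in 11, and both did so in all 20 fits without 1 rat. The exceptions were the gene span offsets with or without the replicate block, under which *Rora* and *Rorb* were not called. Under the striatal covariate both passed narrowly, and *Rorb* did not with a wider marker sum that is not reported here. With the offsets 1656 genes (529 higher, 1127 lower) and 1 of the 9 genes (*Arntl*) were called, and with the striatal covariate 6 genes of the clock pathway list in place of 10. *Clock*, *Npas2*, *Tef*, *Hlf* and *Nfil3* passed in no setting. The direction of *Npas2* turned with scaling by total counts (0.0129) and ran from -0.0593 to 0.0086 over the fits without 1 rat. That of *Nfil3* turned in the rats with at most 300 in striatal markers (0.0312) and ran from -0.0835 to 0.0083 over the fits without 1 rat. Over the 20 fits without 1 rat, the count of genes called ran from 1632 (without LSD rat 8) to 3576 (without saline rat 2), that of the 9 genes was 2 in each and that of the clock list ran from 7 to 13. The number of correlated pairs was 0 in LSD rats alone and 0 in saline rats alone, and 4 or 5 elsewhere, but the pairs changed. With scaling by total counts *Npas2* against *Tef* passed (r = -0.71, permutation test, adjusted p = 0.0102), a pair at r = -0.33 with TMM scaling. Without the 2 farthest rats *Hlf* against *Nfil3* passed (r = -0.59, permutation test, adjusted p = 0.0186). *Clock* against *Dbp* did not pass there (permutation test, adjusted p = 0.387).

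Scaling by total counts turned the split of all genes from 1076 higher and 1418 lower to 1504 and 858, with a median shift of 0.0472, under which *Rora* and *Rorb* stayed higher. Between same-numbered rats r ran from -0.259 to 0.467 and passed 0.1 in 6 of 10 pairs. Its mean was 0.145, against -0.0157 for other pairs. In 1 pair both rats correlated best with their own number. Whether the replicate numbers stand for a pairing or a batch was not tested. With the replicate block 2961 genes were called, among them *Rora* (0.31, edgeR adjusted p = 0.034) and *Rorb* (0.24, adjusted p = 0.026), and 12 of the clock list. With the block and the span offsets *Arntl* (-0.27, edgeR adjusted p = 0.0124) and *Dbp* (0.23, adjusted p = 0.0310) were called. The cause of these changes was not tested. For the 7 genes not called by the edgeR test without these changes, the 95% intervals hold for that fit alone. They do not take in the choice of processing.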
